A study of Arabidopsis thaliana with 9 samples.

Results

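Seedlings of the Arabidopsis thaliana mutant gct-2 were set against wild-type seedlings of the accession Col-0. Of the 9 arrays of the study, 3 carried RNA of gct-2 seedlings aged 9 days and 3 carried RNA of wild-type seedlings aged 7 days, and these 6 arrays were chosen by the genotype in their titles. The remaining 3 arrays were of the mutant cct-1, also aged 9 days, and served as a second mutant of the same age. GCT encodes MED13 and CCT encodes MED12, which belong to the CDK8 module of Mediator. Mediator is the large complex that carries signals from DNA-bound transcription factors to RNA polymerase II, and the CDK8 module binds to it reversibly and can hold back or promote transcription. In Arabidopsis this module is known for its part in the timing of embryo patterning and of the passage from one developmental phase to the next, which was the setting of the study.

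Each array held RNA from the shoot parts of 75 to 100 pooled seedlings, grown at 23 °C in days of 16 h light (8 h dark), and the labels describe the 3 pools of a genotype as separate biological replicates. Seedlings were taken at 1 stage, with first leaf primordia of 1 mm. The mutants reached it 2 days later than wild type, so genotype and age cannot be told apart in any difference between gct-2 and wild type. Seedlings without cotyledons or leaf primordia were not collected, so the arrays describe the mutant plants that formed both. In whole shoots, fewer cells of a type and less RNA per cell cannot be told apart either. Levels are given on the log2 scale, and differences as gct-2 minus wild type on that scale unless a fold is named.

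Array medians lay between 7.70 and 7.76, and the number of arrays limits the precision, with a median standard error of 0.13 for a difference. Pearson's r across probe sets was 0.9907 to 0.9955 among gct-2 arrays, 0.9889 to 0.9948 among wild-type arrays and 0.9745 to 0.98 between them, where probe sets are not independent replicates. The chlorophyll-binding protein gene LHCB4.1, a leaf mesophyll marker, had 13.58, 13.54 and 13.58 in gct-2, against 13.54, 13.58 and 13.61 in wild type, so the tissue carried this marker at a high level in both genotypes. Of the 21 listed mesophyll markers only 2 carried a name. The other, LHCB4.2, was called higher in gct-2. The summed level of both was 14.33 to 14.36 in gct-2 and 14.23 to 14.25 in wild type. Of the other marker lists few genes carried a name either. Root (1 of 22), trichome (1 of 13) and cuticle (1 of 23) markers were barely covered and senescence markers not at all. The root marker PYK10 was at 12.07 to 12.27 in gct-2 and 11.33 to 11.61 in wild type, and was called higher in gct-2. As a sign of RNA quality, the 3′ minus 5′ difference was computed for 2 sets of actin, GAPDH and ubiquitin controls, and 3 of the 6 differences were lower on every gct-2 array than on any wild-type array. These were ubiquitin in both sets, with means of 1.58 in gct-2 and 1.81 in wild type and of 1.39 in gct-2 and 1.51 in wild type, and actin in 1 set, with 4.33 in gct-2 and 4.54 in wild type (2-sided exact permutation tests, p = 0.1 each, the smallest that 3 against 3 can give). The other actin control and both GAPDH controls overlapped between the groups (exact permutation tests, p = 0.3, 0.9 and 0.6). The part of RNA quality in the differences below was not tested. No probe set was named for GCT or CCT, so the mutated gene could not be used to check the labels.

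Between gct-2 and wild type 2640 of the 16826 probe sets (15.7%) were called, meaning a limma adjusted p under 0.05 over all of them. Of these, 1267 (7.53%) were higher in gct-2 and 1373 (8.16%) were lower. A difference of at least 2-fold was reached by 715 called probe sets, 305 higher and 410 lower. Leaving out wild-type replicate 2 lowered the number called to 1553, leaving out gct-2 replicate 2 to 1640 and leaving out gct-2 replicate 3 to 1688. Among the 9227 genes that could be named, 680 were higher and 770 were lower. These shares differed little between the nuclear chromosomes, from 14.6% of the named genes on chromosome 5 to 16.9% on chromosome 4, whereas 4 of 69 plastid genes (5.80%) were called.

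The differences were read by level, since the deposited values carry no detection calls. A value counts as measured here if it exceeded the 40th percentile of that array, between 6.823 and 6.866. On all 6 arrays 9371 probe sets were measured, and 1104 of them (11.8%) were called, 550 higher and 554 lower, 135 of them by at least 2-fold. A further 81 probe sets were measured on all gct-2 arrays and on no wild-type array, and 70 of these were called higher. The converse held for 117 probe sets, with 104 called lower in gct-2. These 2 classes are defined by the groups, which fixes the direction of their calls. Their counts are descriptions and not comparable with the share called among the others. On none of the 6 arrays were 6006 probe sets measured, of which 1080 were called. The share called was highest in dim probe sets, 19.6% at a mean level under 5 and 19.8% between 5 and 7, and lowest in bright ones, 5.90% at 11 and over. The 7 probe sets at that level that differed by at least 2-fold comprised 3 higher and 4 lower.

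**Figure D1:**
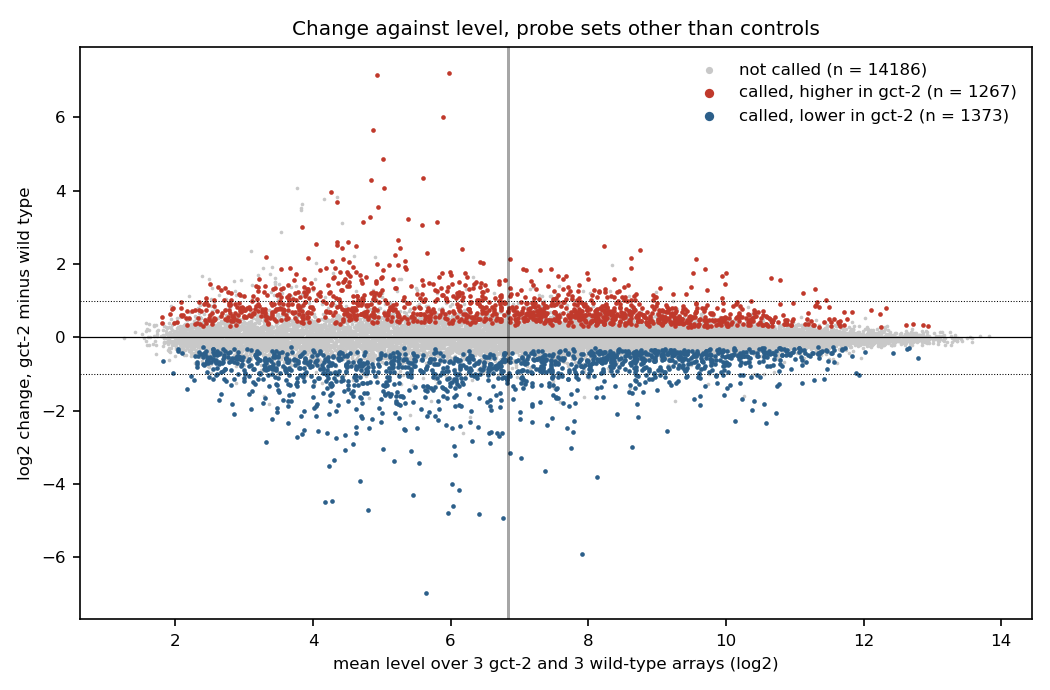
Each point is 1 of 16826 probe sets, with its mean level over 3 gct-2 and 3 wild-type arrays (log2) on the x axis and its difference, gct-2 minus wild type (log2), on the y axis. The 1267 called higher and the 1373 called lower are coloured, dotted lines mark a 2-fold difference and the grey bar marks the 40th percentiles of the arrays, 6.823 to 6.866. Large differences lie mostly left of the bar.

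The genes named first were called, measured on all 6 arrays and chosen without overlap of the groups. Among them the largest rise was that of AT1G47400, a locus of the iron deficiency list. Its levels were 9.76, 9.80 and 10.28 in gct-2, against 7.70, 7.24 and 7.75 in wild type, a 5.21-fold difference (log2 change 2.38, SE 0.33, limma adjusted p = 0.00215). AT1G62290 had 10.46, 10.89 and 10.57 in gct-2, against 8.70, 8.45 and 8.36 in wild type, 4.41-fold higher (adjusted p = 7.47e-05). For both genes every gct-2 array lay more than a log2 unit above every wild-type array. Most loci among the largest differences are known to the annotation only by their AGI code, which names no function.

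AT1G65370 followed, 3.69-fold higher, and AT5G57785 was 3.171-fold higher with all gct-2 arrays between 10.75 and 10.79. MSRB5, which encodes a methionine sulfoxide reductase that repairs oxidised methionine in proteins, had 11.50, 11.58 and 11.33 in gct-2, against 10.19, 9.67 and 9.71 in wild type, 3.06-fold higher (adjusted p = 0.000305). AT3G57020, AT1G73600, AT1G64600 and AT3G51000 were higher by 2.98, 2.50, 2.48 and 2.45-fold. AT1G01920 had 8.45, 8.75 and 8.56 in gct-2, against 7.07, 7.15 and 7.24 in wild type. In this gene the spread within a group was small beside the 2.7-fold difference. The calls of AT5G05250 (2.73-fold higher) and AT5G19240 (2.55-fold higher) depended on single arrays. That of AT5G05250 was lost in 3 of 9 fits that left out 1 array, with adjusted p = 0.0616 without gct-2 replicate 3, 0.0591 without wild-type replicate 2, and 0.0569 when gct-2 replicate 2 was omitted. AT5G19240 lost its call in 7 of 9, most clearly when gct-2 replicate 3 was left out (adjusted p = 0.124). Its wild-type levels ran wide, at 9.24, 8.45 and 7.40.

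Of the genes measured on all 6 arrays and chosen in the same way, AT1G67865 fell most in gct-2. It had 8.89, 8.90 and 9.18 in gct-2, against 11.27, 11.42 and 11.15 in wild type. This was a 4.89-fold difference (log2 change -2.29, SE 0.11, limma adjusted p = 1.84e-05). AT4G38950 had 7.28, 7.39 and 7.40 in gct-2, against 9.23, 9.72 and 9.44 in wild type, 4.304-fold lower. AT3G05730 had 9.69, 9.81 and 9.60 in gct-2, against 11.74, 11.74 and 11.81 in wild type, 4.19-fold lower. In these genes the gap between the groups was wider than the range within either group. AT5G62360 was 3.98-fold lower, and MSRB6, a close relative of MSRB5 in the same enzyme family, was 3.59-fold lower.

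CML30, which encodes a calmodulin-like calcium sensor, had 7.58, 7.84 and 7.96 in gct-2, against 9.69, 9.53 and 9.66 in wild type, 3.57-fold lower (adjusted p = 5.02e-05). The lower group also held AT2G42110 (3.22-fold), AT5G03120 (3.02-fold), AT3G43270 (2.92-fold), AT4G35730 (2.88-fold), AT3G47510 (2.82-fold) and AT3G43670 (2.73-fold). AT3G43270 and AT3G43670 lay close to the 40th percentile in gct-2, at 6.92 to 7.07 and at 7.08 to 7.13. All 12 of these genes kept their call in each of the 9 fits that left out 1 array.

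**Figure D2:**
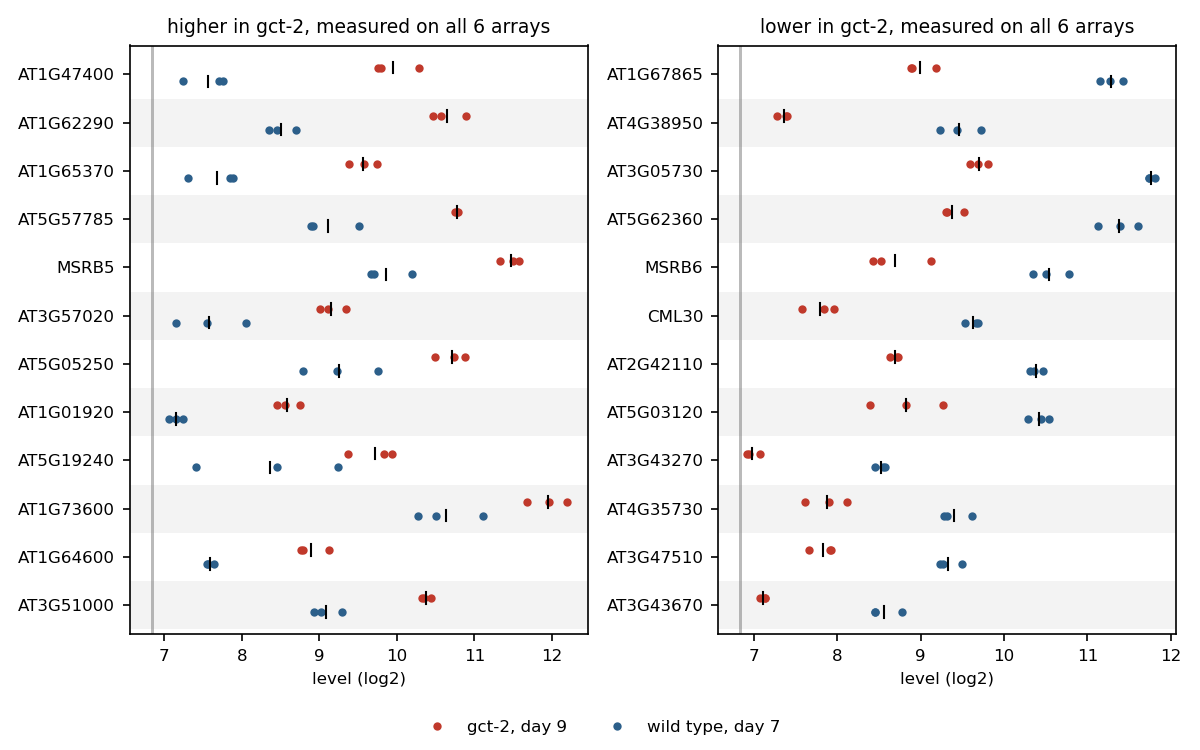
Levels (log2, x axis) of the 12 genes with the largest rise and the 12 with the largest fall among those measured on all 6 arrays. Each point is 1 array, gct-2 above wild type in each row, a black tick marks the mean of 3 arrays and the grey line marks the 40th percentiles of the arrays. The genes were chosen among called ones without overlap of the groups. The wild-type levels of AT5G19240 spread from 7.40 to 9.24.

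For genes measured in 1 genotype only, the fold is given as a minimum, with each level under the 40th percentile raised to it. AT1G47540 was the gene with the largest minimum rise, at least 6.66-fold (148-fold as measured). Its levels were 8.19, 10.84 and 9.70 in gct-2, against 2.27, 2.13 and 2.704 in wild type (limma adjusted p = 0.000647). The gct-2 arrays spread over more than 2 log2 units, with replicate 1 lowest and replicate 2 highest, yet all lay far above wild type. AT1G13650 followed at at least 2.60-fold, AT5G03230 at at least 2.25-fold and AT2G16790 at at least 2.08-fold. AT1G05310 had 7.64, 8.12 and 8.19 in gct-2, against 6.04, 6.06 and 6.30 in wild type, at least 2.21-fold higher (3.604-fold as measured). The minimum folds of AT1G11170, AT4G35220 and AT2G29320 were 1.66, 1.64 and 1.63. All 8 kept their call in each of the 9 fits that left out 1 array.

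AT1G66100, a locus of the jasmonate list, showed the largest minimum fall. Its levels were 6.05, 4.51 and 4.29 in gct-2, against 11.10, 10.84 and 10.68 in wild type, at least 16.3-fold lower (60.5-fold as measured, limma adjusted p = 0.000104). AT1G31690 had 5.996, 6.23 and 6.44 in gct-2, against 10.09, 9.95 and 10.09 in wild type, at least 9.19-fold lower. AT3G16670 had 2.89, 1.75 and 1.81 in gct-2, against 9.12, 9.00 and 9.26 in wild type, at least 4.89-fold lower (126-fold as measured). Bright in wild type, these 3 genes were under the 40th percentile on every gct-2 array. AT1G19380, AT3G16530, AT1G69760 and AT1G62510 were lower by at least 4.25, 4.23, 3.38 and 3.33-fold. EXLA2, which encodes an expansin-like protein, was at least 4.69-fold lower, and its wild-type levels of 10.19, 9.04 and 7.98 spread over more than 2 log2 units. Its call was lost in 4 of 9 fits, most clearly when gct-2 replicate 2 was left out (adjusted p = 0.0622), while the other 7 genes kept theirs in all.

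**Figure D3:**
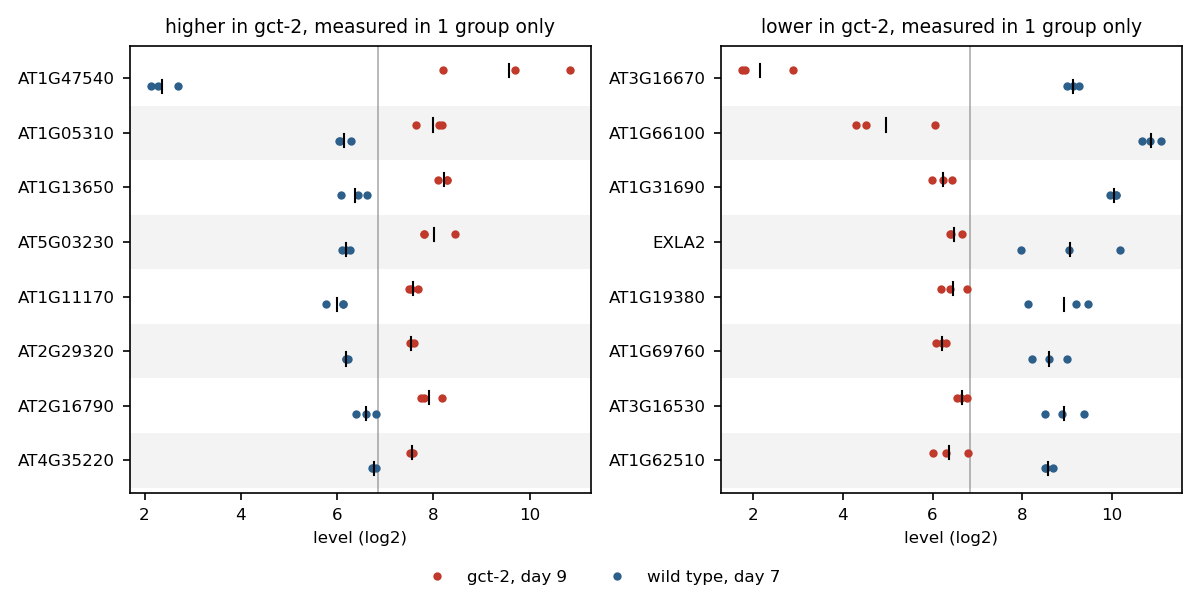
Levels (log2, x axis) of the 8 genes with the largest minimum rise and the 8 with the largest minimum fall among those measured in 1 genotype only. Each point is 1 array, gct-2 above wild type in each row, a black tick marks the mean of 3 arrays and the grey line marks the 40th percentiles, under which a level was not shown to be above background. AT1G47540, AT3G16670 and AT1G66100 stand out by the width of the gap.

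The groups below are lists of genes by function, and 71 of 73 lists had at least 1 named gene. Counts of called members stand against the background of 15.7% over the named genes, 7.37% higher and 8.35% lower, and against their median log2 change of -0.01. Of the 751 distinct genes on the lists 151 were called.

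Genes of cell wall loosening were lower in gct-2 wherever they were called. Expansins loosen the wall so that it can stretch, and xyloglucan endotransglucosylase/hydrolases (XTH) cut and rejoin the xyloglucan chains between cellulose fibres. On this list of 19 genes, all expansins or XTH except EXO, 7 fell and none rose, with a median of -0.60. EXLB1 had 2.49, 1.81 and 1.83 in gct-2, against 6.38, 6.69 and 6.48 in wild type, a log2 change of -4.47 (SE 0.22, adjusted p = 1.84e-05), although no array measured it by the level rule. EXPA16 had 3.05, 4.53 and 4.55 in gct-2, against 8.38, 7.93 and 8.32 in wild type, at least 2.58-fold lower (log2 change -4.16 as measured). The groups did not overlap in either gene, and the size of the EXLB1 difference was read from levels not shown to be above background.

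XTH33 had 3.00, 3.07 and 3.296 in gct-2, against 6.88, 6.09 and 5.14 in wild type, a change of -2.91. EXLA2, described above, was the fourth. EXPA20 (-1.09) and XTH16 (-0.88) fell less and kept their calls whichever array was left out. EXO, named for its exordium protein of growing tissue, had 6.66, 8.02 and 8.25 in gct-2, against 10.90, 9.93 and 8.59 in wild type. Its call was lost in 5 of 9 fits, most clearly when wild-type replicate 2 was left out (adjusted p = 0.102). In EXLA2, EXO, XTH33 and in the uncalled XTH18 (-1.66, adjusted p = 0.105) and EXLA1 (-0.71, adjusted p = 0.332), wild-type replicate 1 was the highest and wild-type replicate 3 the lowest of the wild-type arrays. Without 1 array the list held between 5 and 10 called genes. A filter that left out dim probe sets (below the 40th percentile) reduced it to 4.

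Other wall genes were mixed. In the TBL family, whose members attach acetyl groups to wall polysaccharides, 4 of 17 fell and 1 rose. TBL41 had 2.77, 2.90 and 2.89 in gct-2, against 5.04, 4.73 and 4.87 in wild type, a change of -2.02, and TBL38 changed by -0.97. The calls of TBL26 (-1.31), TBL35 (-0.40) and TBL15 (0.79) were lost in 7, 5 and 6 of 9 fits. Without wild-type replicate 2 or gct-2 replicate 2 the list held 2 called genes, and with dim probe sets left out also 2. Among 22 genes of wall polysaccharide synthesis and glycosyl hydrolysis, 2 rose and 2 fell. PME61, a pectin methylesterase gene, had 4.97, 5.02 and 5.40 in gct-2, against 7.16, 6.70 and 7.16 in wild type, a change of -1.88. GH9C2, which encodes a cellulase-family enzyme, went the other way, with 8.77, 8.35 and 8.03 in gct-2, against 6.70, 6.95 and 7.41 in wild type, a change of 1.36 (adjusted p = 0.0134).

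Of 22 genes of cell division and replication 6 fell in gct-2, none rose and 16 did not pass the test, with a median of -0.33, and no called change reached 2-fold. KINESIN-12B, whose product works in the phragmoplast that builds the new wall, had 8.86, 8.59 and 8.42 in gct-2, against 9.29, 9.31 and 9.24 in wild type, a change of -0.66 (SE 0.11, adjusted p = 0.00547). SIM, an inhibitor of cyclin-dependent kinases that sends cells into endoreduplication, had 8.71, 8.81 and 8.97 in gct-2, against 9.43, 9.29 and 9.30 in wild type, a change of -0.51. Both genes were called in every fit that left out 1 array, and in both the groups did not overlap.

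The mitotic kinase gene AUR3 changed by -0.64 (adjusted p = 0.0316), its relatives AUR2 and AUR1 by -0.48 and -0.42, and the topoisomerase gene TOPII by -0.51. These calls were lost in 5, 2, 7 and 5 of 9 fits, and without wild-type replicate 2 the list held 2 called genes. PRL, a replication licensing gene, was not called (-0.41, adjusted p = 0.0543). Of 7 histone and histone-fold genes, 18 genes of DNA repair and recombination and 12 of the TRM family, some of which act on microtubule arrays, none was called. The IQD family, whose proteins bind calmodulin and microtubules, had 4 of 15 members lower and none higher. IQD24 had 6.34, 5.97 and 6.38 in gct-2, against 7.26, 7.74 and 7.93 in wild type, at least 1.75-fold lower (log2 change -1.42 as measured), and IQD22 changed by -1.47. IQD18 (-0.95) and iqd15 (-0.47) completed them, with 2 called genes left without wild-type replicate 2 or gct-2 replicate 2. With dim probe sets left out the IQD list held 1 called gene. Of 7 tubulin genes TUA1 alone was called, with 7.70, 7.63 and 8.08 in gct-2, against 6.98, 6.96 and 6.71 in wild type.

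Regulators of leaf and organ shape included 6 of 19 genes that rose and 1 that fell, while the list median was -0.09. Of the 19 genes 11 lay under the 40th percentile on all 6 arrays. PTL, a trihelix factor known from petal and sepal growth, had 6.23, 6.18 and 6.09 in gct-2, against 4.84, 5.198 and 4.93 in wild type, a change of 1.18 (SE 0.13, adjusted p = 0.000854). IDD16, a zinc finger factor, had 5.80, 5.14 and 4.84 in gct-2, against 3.21, 3.18 and 3.75 in wild type, a change of 1.88. Both lay under the 40th percentile on all 6 arrays. NGA2, which limits growth at the leaf margin, was brighter, with 8.60, 8.70 and 9.15 in gct-2, against 8.28, 8.21 and 8.06 in wild type, a change of 0.63. JKD (0.96), TCP15 (0.64) and the polarity gene YAB5 (0.36) were also called higher, and SPT, which restrains cotyledon and leaf size, was called lower (-0.53). The calls of JKD, TCP15, YAB5 and SPT were lost in 5, 4, 8 and 5 of 9 fits and that of NGA2 without wild-type replicate 2 (adjusted p = 0.0503). Without wild-type replicate 1 or wild-type replicate 2 the list held 3 called genes, and with dim probe sets left out also 3.

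The stomatal lineage runs through SPCH, MUTE and FMA, bHLH factors that start it, turn it towards a guard mother cell and complete the guard cells. FMA had 6.40, 6.77 and 6.92 in gct-2, against 7.41, 7.91 and 7.72 in wild type, a change of -0.98 (adjusted p = 0.0238). MUTE had 4.65, 4.44 and 5.12 in gct-2, against 5.46, 5.30 and 5.95 in wild type, a change of -0.83. All these MUTE levels lay under the 40th percentile, and with dim probe sets left out the stomatal list held 1 called gene. SPCH (-0.09, adjusted p = 0.647) and STOMAGEN (-0.07, adjusted p = 0.597), whose peptide raises stomatal density, were not called. The FMA and MUTE calls were lost in 4 and 3 of 9 fits, and without wild-type replicate 3, gct-2 replicate 1 or gct-2 replicate 2 neither was left. The cuticle list had 1 named member, AT5G33370, with 3.78, 3.02 and 3.85 in gct-2, against 8.37, 8.23 and 8.49 in wild type, at least 2.87-fold lower (log2 change -4.81 as measured, adjusted p = 1.68e-05).

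Hormone genes changed in both directions. ARR15 and RR16 are type-A response regulators, which cytokinin induces and which dampen its signal. ARR15 had 4.44, 4.99 and 4.59 in gct-2, against 6.49, 7.06 and 7.29 in wild type, a change of -2.27 (SE 0.21, adjusted p = 0.000277). RR16 had 8.16, 8.96 and 8.77 in gct-2, against 9.42, 9.55 and 9.80 in wild type, a change of -0.96. These were the only 2 cytokinin genes with a name, and the RR16 call did not survive the omission of wild-type replicate 2 (adjusted p = 0.0546) or 3 (0.054).

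Of 14 auxin genes 4 rose and 2 fell. GH3 enzymes link auxin to amino acids and so remove it from the active pool. WES1 had 7.37, 6.08 and 6.50 in gct-2, against 5.37, 5.17 and 4.48 in wild type, a change of 1.64 (adjusted p = 0.0182, and 0.0506 without wild-type replicate 3). GH3.17 changed by 1.45 and GH3.9 by 0.39, whereas GH3.3 had 5.03, 4.85 and 4.55 in gct-2, against 6.57, 6.53 and 6.21 in wild type, a change of -1.63. Members of 1 enzyme family thus stood on both sides. IAA29, an Aux/IAA repressor gene, rose (1.26), and the homeodomain gene HAT2 fell (-1.03). The calls of HAT2 and GH3.9 were lost in 3 and 6 of 9 fits. All auxin members but WES1 that were called lay under the 40th percentile on all 6 arrays, and a filter that left out dim probe sets reduced the list to 1. Without wild-type replicate 1, wild-type replicate 2 or gct-2 replicate 2 it held 4.

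In gibberellin signalling the receptor gene GID1A had 9.02, 9.13 and 9.11 in gct-2, against 8.71, 8.59 and 8.69 in wild type, a change of 0.42 (adjusted p = 0.00964). SLY1, whose F-box protein marks the DELLA repressors for breakdown, had 9.50, 9.63 and 9.52 in gct-2, against 9.17, 9.16 and 9.12 in wild type, a change of 0.39. These rises were small and outside the spread of either group, and they were called in all 9 fits that left out 1 array. Of 12 genes of small secreted peptides CLE44, whose peptide keeps vascular stem cells dividing, rose (0.93), and RALFL32 (-0.66) and RALFL34 (-0.48) fell. Without wild-type replicate 2 none of these 3 was called.

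Shares called among photosynthesis genes were 11.4% on the first plastid list below and 23.5% on the nuclear list, beside 15.7% over the named genes. Plastid-encoded genes of the photosystems, the cytochrome b6f complex, ATP synthase and Rubisco had 4 of 35 members lower and none higher, with a median of -0.14. rbcL, which encodes the large subunit of Rubisco, had 10.90, 11.16 and 11.42 in gct-2, against 11.89, 11.88 and 11.62 in wild type, a change of -0.64 (SE 0.16, adjusted p = 0.0261). The cytochrome subunit genes petD and petA changed by -0.93 and -0.51, and psbE of photosystem II by -0.42. The calls of rbcL, petD, petA and psbE were lost in 4, 7, 7 and 5 of 9 fits, and without wild-type replicate 1, wild-type replicate 2 or gct-2 replicate 2 none of the 4 was left. None of 10 plastid NDH genes, 20 genes of plastid transcription and translation or 12 mitochondrial genes was called.

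Among 17 nuclear genes of photosynthesis and carbon fixation 2 rose and 2 fell. The LHCB4 genes encode the same light-harvesting protein of photosystem II and differed from each other. LHCB4.3 had 7.84, 8.49 and 8.35 in gct-2, against 9.40, 9.32 and 9.59 in wild type, a change of -1.21 (adjusted p = 0.0055). LHCB4.2 had 13.10, 13.09 and 13.10 in gct-2, against 12.88, 12.81 and 12.70 in wild type, a change of 0.30 whose call was lost in 5 of 9 fits, and LHCB4.1 was not called (-0.01, adjusted p = 0.948). NdhL (-0.43) was called lower and PGRL1B (0.41) higher, 2 genes of cyclic electron flow. Without wild-type replicate 2 or gct-2 replicate 1 this list held 1 called gene. Of 12 genes of chlorophyll and haem synthesis only HEMA2 was called (-0.71, adjusted p = 0.0362), and it was lost in 5 of 9 fits, at most 0.101, without gct-2 replicate 2.

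**Figure D4:**
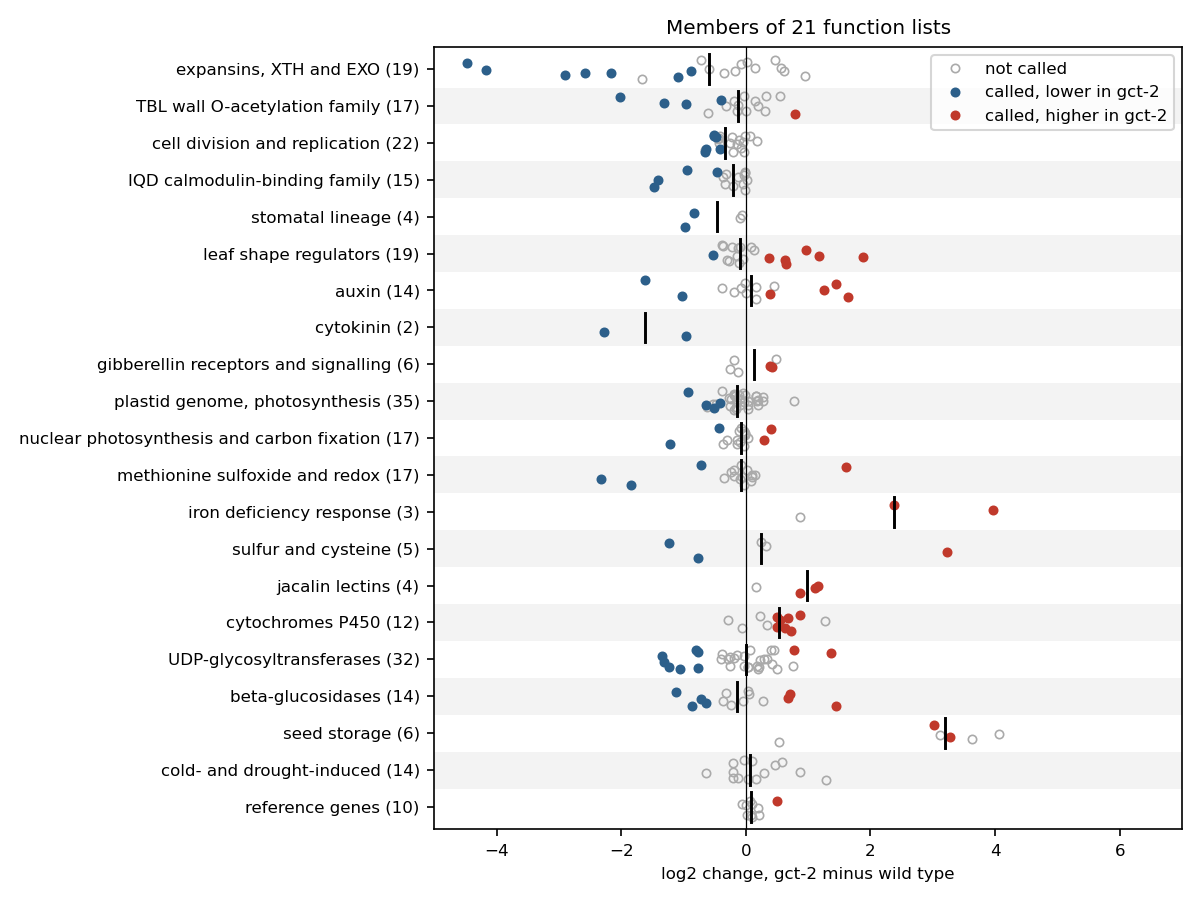
Difference between gct-2 and wild type (log2, x axis) of every named member of 21 function lists, with the number of members after each list name. Filled points were called, open ones were not, the vertical position within a row has no meaning and a black bar marks the median. The 7 called genes of the expansin, XTH and EXO list and the 6 called cell division genes lie left of 0, and the 7 called P450 and 3 called jacalin genes lie right of it.

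Of 3 named genes of the iron deficiency list 2 rose. BHLH101, a transcription factor of the iron deficiency response, had 5.16, 6.21 and 7.39 in gct-2, against 2.701, 1.93 and 2.204 in wild type, a change of 3.97 (SE 0.57, adjusted p = 0.0026), of which only gct-2 replicate 3 exceeded the 40th percentile. AT1G47400, described above, was the other. PYE, another factor of that response, had 7.73, 8.44 and 8.20 in gct-2, against 7.45, 7.14 and 7.17 in wild type, and was not called (0.87, adjusted p = 0.0887). All 3 thus stood higher on every gct-2 array than on any wild-type array.

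Sulfate is activated by ATP sulfurylase (APS), reduced by sulfite reductase (SIR) and built into cysteine by O-acetylserine thiol lyases such as OASA2. OASA2 had 6.85, 6.99 and 7.14 in gct-2, against 3.85, 3.66 and 3.79 in wild type, at least 1.11-fold higher (log2 change 3.23 as measured, SE 0.24, adjusted p = 0.000128). SIR had 10.54, 10.20 and 10.16 in gct-2, against 11.06, 11.15 and 10.98 in wild type, a change of -0.76. APS3 had 8.63, 8.57 and 8.49 in gct-2, against 10.20, 10.11 and 9.07 in wild type, a change of -1.23. Members of 1 pathway moved both ways here, each without overlap of the groups. The APS3 call was lost in 4 of 9 fits, most clearly when wild-type replicate 2 was left out (adjusted p = 0.0744), and the list then held 2 called genes.

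Methionine sulfoxide reductases of the B type also moved both ways. Beside the rise of MSRB5 and the fall of MSRB6, MSRB9 had 5.51, 4.89 and 4.94 in gct-2, against 8.43, 7.101 and 6.77 in wild type, a change of -2.32 (adjusted p = 0.00717). How far probe sets of such similar genes share signal was not tested. On the whole redox list 1 of 17 genes rose and 3 fell. SAPX, an ascorbate peroxidase of the organelles, was the remaining one (-0.72, adjusted p = 0.0332), its call lost in 5 of 9 fits most clearly when gct-2 replicate 3 was left out (adjusted p = 0.106).

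The beta-glucosidase PYK10 is a constituent of the ER bodies of Brassicaceae, and jacalin-type lectins are known from PYK10 aggregates. Of 4 jacalin genes 3 rose, and all 3 kept their call whichever array was left out. JAL34 had 12.11, 11.56 and 11.52 in gct-2, against 10.89, 10.72 and 10.998 in wild type, a change of 0.86. JAL22 changed by 1.1 and JAL33, measured in gct-2 only, was at least 1.38-fold higher, while JAL23 stayed dim, at 1.71 to 2.88 in gct-2 and 1.78 to 2.25 in wild type. PYK10 had 12.27, 12.18 and 12.07 in gct-2, against 11.52, 11.33 and 11.61 in wild type, a change of 0.68 (SE 0.10, adjusted p = 0.0034). PYK10 is also the only named root marker, and the part of root tissue in its rise was not tested.

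PYK10 was 1 of 3 beta-glucosidase genes of 14 that rose. BGLU46 had 6.75, 7.02 and 7.44 in gct-2, against 5.64, 5.70 and 5.52 in wild type, a change of 1.45, and BGLU25 changed by 0.70. The 4 that fell were BGLU15 (-1.12), BGLU47 (-0.87), BGLU40 (-0.72, at least 1.45-fold) and BGLU28 (-0.64). BGLU45 to BGLU47 are known from the handling of lignin precursor glucosides, and there BGLU46 and BGLU47 changed in opposite directions. All 7 kept their call in each of the 9 fits.

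Cytochrome P450 genes, here nearly all of the CYP71B subfamily of oxidising enzymes, rose in 7 of 12 cases and fell in none, with a median of 0.53 and no change of 2-fold. CYP71B6 had 10.06, 9.98 and 10.10 in gct-2, against 9.25, 9.23 and 9.50 in wild type, a change of 0.72. CYP71B5 had 9.79, 9.58 and 9.78 in gct-2, against 9.20, 9.01 and 9.07 in wild type, a change of 0.62. These 2 were called in all 9 fits. CYP71B24 (0.86), CYP71B29 (0.68), CYP71B34 (0.55), CYP71B35 (0.50) and CYP71B37 (0.50) lost their calls in 2, 6, 5, 5 and 4 of 9. Without wild-type replicate 2 the list held 2 called genes. Of the 12 genes 7 lay under the 40th percentile on all 6 arrays, and with dim probe sets left out 3 were called.

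UDP-glycosyltransferases, which attach sugars to hormones and other small molecules, fell in 7 of 32 cases and rose in 2. GT72B1 had 7.70, 7.204 and 7.61 in gct-2, against 8.63, 8.84 and 9.09 in wild type, a change of -1.35 (adjusted p = 0.00111). UGT85A4 had 6.58, 6.83 and 7.09 in gct-2, against 7.82, 8.34 and 8.29 in wild type, a change of -1.31, and UGT85A3, of the same subfamily, had 6.69, 7.15 and 7.48 in gct-2, against 6.22, 5.78 and 5.24 in wild type, a change of 1.36. The list median was near 0. Without wild-type replicate 2 or gct-2 replicate 2 it held 6 called genes, and with dim probe sets left out 5. Serine carboxypeptidase-like genes rose in 3 of 14 cases and fell in 3. Of these, scpl35 had 9.36, 9.38 and 9.32 in gct-2, against 10.28, 10.27 and 10.21 in wild type, a change of -0.90 (SE 0.07). scpl50 changed by -1.07 and scpl20 by 0.84, and without gct-2 replicate 3 the list held 3 called genes.

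Among 11 genes of defensins, thionins and pathogenesis-related proteins, THI2.2, which encodes a thionin, an antimicrobial peptide, had 11.23, 10.79 and 10.55 in gct-2, against 10.22, 9.56 and 9.79 in wild type, a change of 1.00 (adjusted p = 0.0119). The chitinase gene ChiC had 2.84, 2.43 and 3.19 in gct-2, against 4.35, 4.52 and 4.79 in wild type, a change of -1.73, and PR-1-LIKE changed by -1.26. Both lay under the 40th percentile throughout. None of 6 flavonoid and anthocyanin genes was called, nor was any of 14 cold- and drought-induced genes.

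Of 6 seed storage genes 2 were called, both higher in gct-2, and 4 did not pass the test. Oleosins coat the oil bodies of seeds, and 7S globulins such as PAP85 are storage proteins. The summed level of the list was 6.35, 10.34 and 8.13 in gct-2 and 5.08, 5.05 and 5.01 in wild type. PAP85 had 3.55, 8.21 and 5.65 in gct-2, against 1.75, 1.91 and 1.58 in wild type, a difference of 4.06 that was not called (SE 1.21, adjusted p = 0.0521). OLEO3 had 4.66, 8.59 and 6.18 in gct-2, against 3.29, 3.199 and 3.08 in wild type, a called change of 3.28 (SE 0.96, adjusted p = 0.0498). In each case replicate 2 was the highest and replicate 1 the lowest gct-2 array, as for AT1G47540.

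AT4G36700 of the same list was called (3.02, adjusted p = 0.0495), AT2G28490 (3.62, adjusted p = 0.0521), AT3G01570 (3.11, adjusted p = 0.0798) and AT1G54870 (0.54, adjusted p = 0.251) were not. The number called ran from 0 to 5 over the fits that left out 1 array. It was 0 in 7 of them, those without any single wild-type array, cct-1 replicate 2 or 3, or gct-2 replicate 2 or 3. Without gct-2 replicate 1 or cct-1 replicate 1 it was 5. With dim probe sets left out (below the 40th percentile) it was 0, as it was with a block for the replicate number. The product of the protease gene BETA-VPE processes seed storage proteins. BETA-VPE had 4.23, 5.15 and 4.48 in gct-2, against 2.79, 2.67 and 2.71 in wild type. This change of 1.89 was called in all 9 fits (adjusted p = 0.00221), but every level lay under the 40th percentile. Its size was thus read from levels not shown to be above background. AIM1, a gene of fatty acid beta-oxidation, changed by 0.42 (adjusted p = 0.0139, and 0.053 without wild-type replicate 2), while ICL of the glyoxylate cycle was not called (0.85, adjusted p = 0.195).

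Of 10 autophagy genes 2 rose and none fell, a share of 20% called beside 15.7% over the named genes. ATG8 proteins decorate autophagosomes, the vesicles that carry cell contents to the vacuole. ATG8B had 9.15, 9.16 and 8.93 in gct-2, against 8.17, 8.01 and 7.78 in wild type, a change of 1.09 (SE 0.12, adjusted p = 0.000583), and ATG8G changed by 0.77. SFP1 and SFP2 encode neighbouring members of a family of sugar transporters. SFP1 had 8.93, 9.05 and 9.13 in gct-2, against 7.90, 7.78 and 7.71 in wild type, a change of 1.24, and SFP2, measured in gct-2 only, was at least 1.34-fold higher. These 4 rises were called in all 9 fits.

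Of 22 genes of folding and quality control in the endoplasmic reticulum BZIP17 (0.81), BZIP28 (0.50, at least 1.204-fold) and DER2.1 (0.48) rose and none fell. The share called was 13.6%, beside 15.7% over the named genes, and the list median was 0.06. BZIP17 and BZIP28 are membrane-bound factors released on ER stress. Without wild-type replicate 1, wild-type replicate 2, gct-2 replicate 2 or gct-2 replicate 3 the list held 1 called gene. In the citrate cycle list the isocitrate dehydrogenase gene ICDH alone of 13 was called, with 5.88, 5.49 and 6.22 in gct-2, against 7.81, 7.63 and 7.32 in wild type, at least 1.68-fold lower (log2 change -1.73 as measured, SE 0.20, adjusted p = 0.000918). Of 5 glutamate receptor-like genes GLR3.3 (1.11) and GLR3.5 (0.67) rose and GLR1.4 (-0.38) fell, all under the 40th percentile. The ubiquitin-conjugating enzyme gene UBC18 had 8.99, 8.87 and 8.98 in gct-2, against 9.71, 9.66 and 9.74 in wild type, a change of -0.76.

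Of Mediator genes 5.88% were called, of RNA polymerase subunits 16.7% and of chromatin remodelling genes 10.5%, beside 15.7% over the named genes. Of 17 named Mediator genes 1 was called, AT5G64680. It is in the list by its locus, and its subunit is not named in the annotation used. It had 9.41, 9.40 and 9.52 in gct-2, against 8.40, 8.49 and 8.39 in wild type, a change of 1.02 (SE 0.10, adjusted p = 0.000327). NRPC2 and NRPA1, which encode large subunits of RNA polymerases III and I, changed by 0.80 (adjusted p = 0.0248) and 0.63 (adjusted p = 0.0426). Neither was called without wild-type replicate 1, wild-type replicate 2, gct-2 replicate 1 or gct-2 replicate 2. Of 19 chromatin remodelling genes CHR42 rose (0.90), and ULT1, a trithorax-group gene that limits meristem size, had 8.88, 9.43 and 9.68 in gct-2, against 10.62, 10.43 and 10.08 in wild type, a change of -1.05. The ULT1 call was lost in 4 of 9 fits, and the list held 1 called gene without wild-type replicate 1, wild-type replicate 2 (ULT1 adjusted p = 0.0807) or gct-2 replicate 2.

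Of 14 genes of organelle RNA editing and processing PPR596 fell, with 7.89, 7.66 and 7.29 in gct-2, against 8.47, 8.36 and 8.46 in wild type, a change of -0.82 (adjusted p = 0.00667). OTP81 also fell (-0.51), but lost its call in 6 of 9 fits, most clearly when gct-2 replicate 3 was left out (adjusted p = 0.113), which left 1 called gene. Genes of phase change and flowering were thinly covered, with 7 named. SMZ, a repressor of flowering, had 8.13, 7.99 and 7.92 in gct-2, against 7.58, 6.96 and 6.11 in wild type, and was not called (1.13, adjusted p = 0.0544). Its relative SNZ differed by 0.07 (adjusted p = 0.83). GI, which links the circadian clock to flowering, had 7.28, 6.77 and 6.19 in gct-2, against 6.04, 4.73 and 4.21 in wild type, a change of 1.75 (adjusted p = 0.0443) whose call was lost in 7 of 9 fits, most clearly when wild-type replicate 2 was left out (adjusted p = 0.131).

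Of 10 genes used as expression references 1 was called, AT5G15710, at least 1.27-fold higher with a measured change of 0.49 (adjusted p = 0.0187), lost without gct-2 replicate 2 (0.0696), wild-type replicate 1 or gct-2 replicate 3 (3 of 9 fits). The median over the 10 was 0.09. Their share called was thus within a few percentage points of the 15.7% over the named genes.

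The mutants shared their age of 9 days, so the direct contrast of gct-2 with cct-1 is free of the 2 days between mutant and wild type. Here 772 of 16826 probe sets (4.59%) were called, 359 (2.13%) higher and 413 (2.45%) lower in gct-2. This number fell to between 207 and 680 when 1 array was left out, with 207 without gct-2 replicate 3, 238 without gct-2 replicate 2, 286 without cct-1 replicate 2, 398 without cct-1 replicate 1, 401 without cct-1 replicate 3 and 453 without wild-type replicate 2. Between arrays of the mutants Pearson's r was 0.9859 to 0.9898 across probe sets. Both mutants were also compared with the same 3 wild-type arrays, so their differences from wild type are given side by side without a count of overlap. Of the 45 genes of the text and lists that were called in this contrast, 16 kept the call in each of the 9 fits that left out 1 array.

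Higher in gct-2 than in cct-1 was THI2.2, with 11.23, 10.79 and 10.55 in gct-2, against 9.12, 9.32 and 9.16 in cct-1, a difference of 1.66 (SE 0.20, limma adjusted p = 0.00584). UGT72E1, which encodes a glucosyltransferase of monolignols, had 7.02, 6.44 and 7.15 in gct-2, against 5.57, 5.46 and 4.96 in cct-1, a difference of 1.54. GI had 7.28, 6.77 and 6.19 in gct-2, against 3.21, 3.64 and 2.36 in cct-1, a difference of 3.67 (SE 0.50, adjusted p = 0.00765). Of the GI levels only gct-2 replicate 1 exceeded the 40th percentile, so the size of this difference was read from levels not shown to be above background. AT5G64680 of the Mediator list was higher in gct-2 by 0.74. Of the loci named above for their large differences from wild type, AT1G05310 was higher in gct-2 than in cct-1 by 1.56, AT1G01920 by 0.94 and AT1G64600 by 0.82.

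Lower in gct-2 than in cct-1 was ccb452, a gene of mitochondrial cytochrome c biogenesis, with 4.77, 4.17 and 4.47 in gct-2, against 7.14, 7.57 and 7.50 in cct-1, a difference of -2.94 (SE 0.19, adjusted p = 0.000408). In wild type it had 4.49, 5.02 and 4.73. The bZIP gene HYH, a relative of the light-signalling factor HY5, had 7.71, 7.18 and 6.93 in gct-2, against 9.12, 8.83 and 8.93 in cct-1, a difference of -1.69. The sugar transporter gene SWEET2 differed by -1.37, with all levels under the 40th percentile. For ccb452, HYH and SWEET2 the gct-2 levels overlapped with those of wild type, and none was called between gct-2 and wild type (adjusted p = 0.364, 0.66 and 0.93).

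ICDH had 5.88, 5.49 and 6.22 in gct-2, against 7.62, 7.21 and 7.46 in cct-1, a difference of -1.57 (adjusted p = 0.00637), and PPR596 differed by -1.04. AT5G33370 had 3.78, 3.02 and 3.85 in gct-2, against 6.16, 5.83 and 6.16 in cct-1, a difference of -2.49 between levels that were under the 40th percentile in both mutants. AT1G69760, AT3G05730 and AT4G38950, all lower in gct-2 than in wild type, were lower in gct-2 than in cct-1 by 1.28, 0.95 and 0.81 on the log2 scale, and the cct-1 arrays of each lay between the gct-2 and the wild-type arrays. The cytochrome P450, expansin and cell division genes named above were not called between the mutants except EXLB1, which was lower in gct-2, again under the 40th percentile (-1.31, adjusted p = 0.0154, and 0.0661 without gct-2 replicate 3). A difference that was not called is not shown to be absent.

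**Figure D5:**
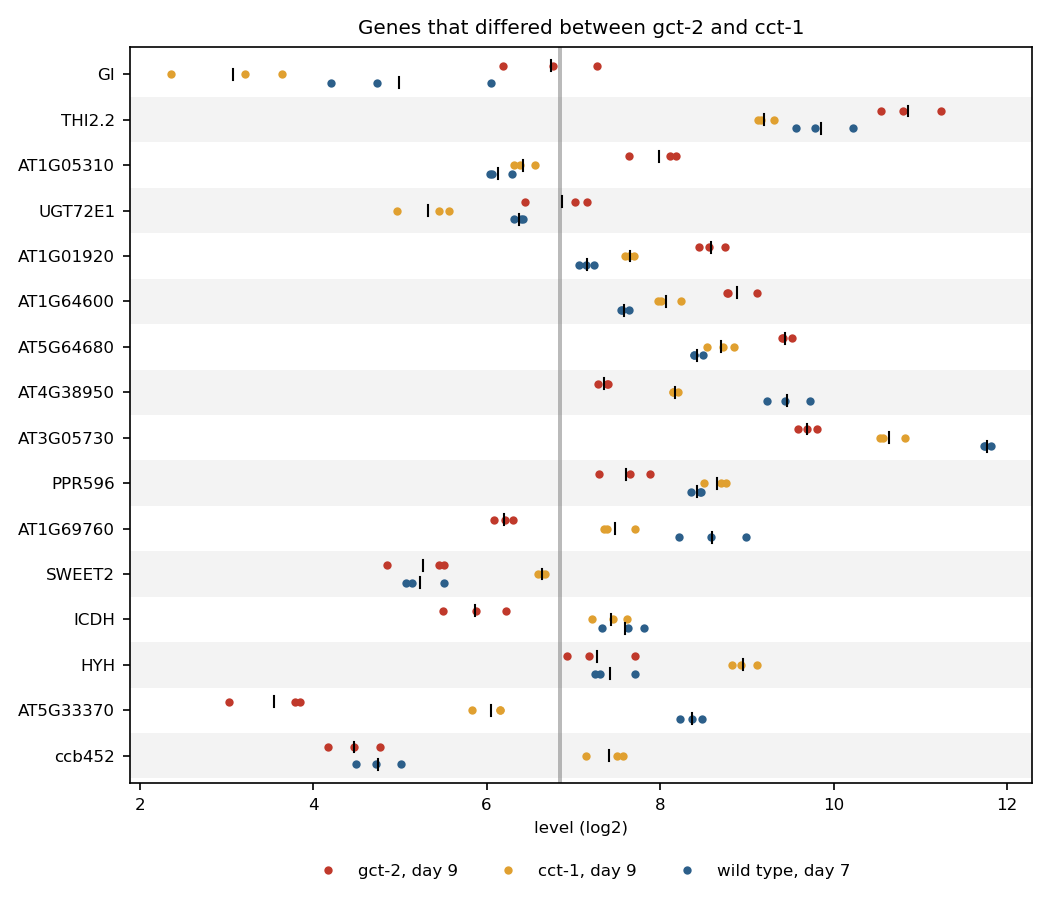
Levels (log2, x axis) of the 16 genes of the text that were called between gct-2 and cct-1 in every fit that left out 1 array. Each point is 1 array, with gct-2 at the top, cct-1 in the middle and wild type at the bottom of each row, a black tick marks the mean of 3 arrays and the grey line marks the 40th percentiles. Levels left of the grey line were not shown to be above background, among them all cct-1 and wild-type levels of GI, and ccb452, HYH and SWEET2 stand apart in cct-1.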

How the data were processed

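RNA was amplified from 50 ng with the NuGEN Ovation system and hybridised to Affymetrix ATH1 arrays, 1 per pool, per the labels' protocols. The authors deposited 1 table of log2 values per probe set. The submitters' processing notes name GCRMA and MAS5, without a version, and the sources used here do not say which of them made these values. The table holds 16863 probe sets, and they do not say how these were chosen. The values were taken as deposited, without further normalization, and 37 control probe sets were left out.

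Of the other 16826 probe sets 9335 had 1 gene in the platform annotation, 351 had several and 7140 had none, and only those with 1 gene were named, though all were tested. RefSeq (TAIR10.1) matched 9291 of the named ones. Of several probe sets of a gene, the one with the highest mean level over the 9 arrays was kept, and in none of 100 such genes were probe sets called in opposite directions. A linear model of the 3 genotypes over 9 arrays was fitted with limma 3.58.1 in R 4.3.3 (lmFit, eBayes), with Benjamini-Hochberg adjustment over all probe sets and a threshold of 0.05, and the procedure was tested on simulated data. Tables and figures used Python 3.11.15, pandas 2.3.3, scipy 1.17.1 and matplotlib 3.10.9.

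Genes were named by rule, at first among called genes whose gct-2 arrays lay all above or all below the wild-type arrays. Of these, the 12 largest changes each way were taken among genes measured on all 6 arrays. The 8 largest minimum folds each way were taken among those measured in 1 genotype. Up to 3 called genes of each function list were added without regard to overlap, with any member of a list of at most 12 genes. Further members of longer lists were named after their values were seen. The members and the lists were chosen with earlier results of these data known. Alternatives were filters on dim probe sets, quantile normalization, median centring, other variance settings, array weights, a block for the replicate number, fits of 2 groups alone and fits without each array. Same-numbered gct-2 and wild-type replicates deviated together with correlations of 0.0336, -0.0113 and -0.0885, so the numbers were not taken to pair samples.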

Additional observations from a re-analysis of the deposited data

Results flagged for a closer look

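The following loci, named in the report for their difference from wild type, also differed between gct-2 and cct-1 by limma's test of that difference itself. All values are gct-2 minus cct-1 on the log2 scale, with the adjusted p over all probe sets.

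Higher in gct-2 than in cct-1 were AT1G05310 by 1.562 (adjusted p = 0.00244), AT1G01920 by 0.9388 (adjusted p = 0.00369) and AT1G64600 by 0.8185 (adjusted p = 0.0102). AT4G35220 differed by 0.4945 (adjusted p = 0.0124) and lost the call in 1 of 9 fits that left out 1 array. AT2G16790 (0.6778, adjusted p = 0.0458), AT3G43670 (1.11, adjusted p = 0.0461) and AT1G66100 (1.787, adjusted p = 0.0488) each lost it in 8 of 9. For AT1G66100 all levels of both mutants, and for AT3G43670 all cct-1 levels, were under the 40th percentile of their arrays, so these sizes were read from levels not shown to be above background.

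Lower in gct-2 than in cct-1 were AT3G05730 (-0.9474, adjusted p = 0.0043), AT1G69760 (-1.282, adjusted p = 0.0102) and AT4G38950 (-0.8127, adjusted p = 0.0112). AT3G47510 differed by -0.7164 (adjusted p = 0.0317) and lost the call in 5 of 9 fits.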

How the results depend on the processing

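Of 2640 probe sets called between gct-2 and wild type, a filter at the 40th percentile gave 1591, 1 at the 60th percentile 1097 and array weights 4037, and fits without 1 array gave 1553 to 2678. Those of at least 2-fold, 715 in all, numbered 291 and 134 under these filters and 602 to 751 without 1 array. The 772 between gct-2 and cct-1 became 486 at the 60th percentile, 1219 with array weights, 413 with the mutants alone and 207 to 680 without 1 array. The 151 called list members became 71 at the 60th percentile and 86 to 156 without 1 array. With the 60th percentile as the level that counts as measured, 5991 probe sets were measured on all 6 arrays, against 9371. The replicate block gave 2167 calls between gct-2 and wild type, and 430 between gct-2 and cct-1. The cause of these changes was not tested, apart from the fewer probe sets or arrays that a filter or an omission leaves. No named gene changed direction under any alternative run. Filters, other variance settings, the fit of 2 groups alone, the replicate block and omission of a cct-1 array cannot change the estimated difference. The filters kept 111 (40th percentile) and 71 (60th percentile) of the 150 genes. In every fit without 1 array 95 of 150 kept their call. Dim probe sets limit what can be said, since a level under the 40th percentile was not shown to be above background.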
